A study of Mus musculus with 32 samples.

Results

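Sorted β cells and macrophages (MΦs) from the same kind of recovering islet were compared with each other: 3 samples titled 1wk WD-Beta and 4 samples titled 1wk WD-Mphs, 7 of the 32 samples of the series. The samples were taken by their titles. All 7 came from mice of the MIP-GFP; RIP-rtTA; TetO-VEGF-A strain, in which a rat insulin promoter drives the doxycycline (Dox)-dependent activator, β cells make human VEGF-A while Dox is given, and GFP is under the mouse *Ins1* promoter. The mice had received Dox for 1 week and were then without it for 1 week (1wk WD), a time at which the study followed β cell recovery. β cells were the GFP+ cells left once CD31+ and CD11b+ cells had been set aside, and MΦs were the CD11b+ cells. Beside these samples stand 4 β cell and 4 MΦ samples of the same strain that never received Dox (No Dox) and 5 samples of CD31+ endothelial cells (ECs) at 1wk WD. The islets of several mice were pooled for each sample, so a p-value measures the spread between pools. The mice were 8 to 16 weeks old when the experiments began. Because the sorts used GFP under the *Ins1* promoter, CD11b (*Itgam*), and CD31 (*Pecam1*), the levels of *Ins1*, *Itgam*, and *Pecam1* describe the sorts and are not findings.

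A β cell makes and releases insulin and carries receptors for hormones, cytokines, and guidance cues that set its growth and secretion. Islet MΦs are phagocytes that clear dying cells and release cytokines, chemokines, and growth factors. A secreted ligand acts through its receptor. Transcripts of a ligand in one sorted cell type and of its receptor in the other do not show that a route is used. They name a possible route between the cell types. For this reason 317 known ligand and receptor pairs in 29 families, with 211 ligand genes and 206 receptor genes, were followed here.

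Each value is a normalized score, the authors' scaled expression value rounded to a whole number, with 1 as the lowest score and no known read depth behind it. Scores were compared on the log2(score + 1) scale with limma over the 16230 genes whose mean score was at least 20 in either group, and a call needed at least a fold change of 2 together with an adjusted p (Benjamini-Hochberg) below 0.05. Scores are listed below in the order of β cell replicates 1, 2, and 3 and then MΦ replicates 1 to 4, and a value after ± is the standard error of a log2 difference. Whether scores were divided by transcript length is not given in the sources used here, so they compare 1 gene between samples and not 1 gene with another. In sorted pools, fewer cells of a type and less RNA per cell cannot be told apart.

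The labels held for the leading markers of both sorts. *Ins1* (mm9 chromosome 19, 52338813 to 52339946, + strand), which encodes insulin I, had scores of 350182, 1135945, and 5791698 in β cells and 2274, 2252, 3808, and 1935 in MΦs. *Csf1r*, the receptor for CSF1 on which most MΦs depend, had scores of 3040, 2534, and 1687 in β cells and 67905, 69938, 64649, and 70526 in MΦs. The groups did not overlap for either gene, and *Csf1r* varied little among the MΦ samples. All 18 β cell markers, such as the transcription factors *Pdx1*, *Mafa*, and *Nkx6-1*, were called higher in β cells, and all 18 MΦ markers, such as *Cd68*, *Adgre1* (F4/80), and the complement genes *C1qa*, *C1qb*, and *C1qc*, were called higher in MΦs. *Ins1* and *Ins2* are near-identical copies, and how the reads were divided between them is not stated.

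The 3 β cell samples differed from each other more than the 4 MΦ samples did, with a median SD of 0.594 against 0.274 on the log2 scale. All 18 β cell markers were highest in β replicate 3. All 12 stromal and pericyte markers were lowest in that replicate. *Col1a1*, a fibroblast collagen, had scores of 61584, 51511, and 2958 in β cells and 368, 1749, 1092, and 728 in MΦs, and 10 of the 12 stromal markers were called higher in β cells. Summed over the 12 stromal genes, the score was 372843, 337470, and 26385 in β replicates 1, 2, and 3, from 3763 to 11958 in MΦs, and from 17325 to 71533 in ECs. By this sum, replicate 3 lay within the range of the ECs, and replicates 1 and 2 lay above every EC sample. By the mean log2 score of the same genes, all β replicates (13.79, 13.54, and 9.97) lay above every EC sample (7.08 to 8.71).

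Genes of other cell types differed among the β samples too. *Xcr1*, the chemokine receptor of cross-presenting dendritic cells, had scores of 1791, 1548, and 216 in β cells and 175, 236, 106, and 70 in MΦs, while the MΦ gene *C1qb* had 1, 28, and 718 in β cells. *Xcr1* was the only dendritic cell marker of the 8 called higher in β cells, with 4 called higher in MΦs and 3 in neither. Of the 8 dendritic cell markers, 6 were lowest of the β samples in replicate 3 and 2 highest (*Cd209a* and *Siglech*), and of the 18 MΦ markers 11 were highest there and 7 lowest, *Ptprc*, *Spi1*, and *Cd68* among them. Acinar enzyme genes were high in β replicate 1 and MΦ replicate 1: *Ctrb1*, a chymotrypsinogen, had scores of 309101, 46681, and 202 in β cells and 105832, 1452, 1170, and 942 in MΦs. T cell genes stood out in β replicate 1, where *Cd8a* had a score of 3276 against 42 and 27 in the other β samples. Of the 12 EC markers, 9 were highest of the β samples in replicate 3, as for *Cdh5* (VE-cadherin) with 9, 130, and 1803 in β cells and 37360 to 47090 in ECs. Of the neutrophil genes in the list, 6 of 8 tested were called higher in MΦs, and *S100a9* was at 1151 to 1739 in MΦs and at the lowest score in every β sample. In the header, the library number of β replicate 3 lies apart from those of the other 6 samples, so its differences from replicates 1 and 2 and that number cannot be told apart. What part these other cell types have in the results below was not tested. Fits below without β replicates 1 and 2 set a lone β sample against the MΦs. A call can be lost there for lack of replicates while the difference stays large.

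**Figure D1:**
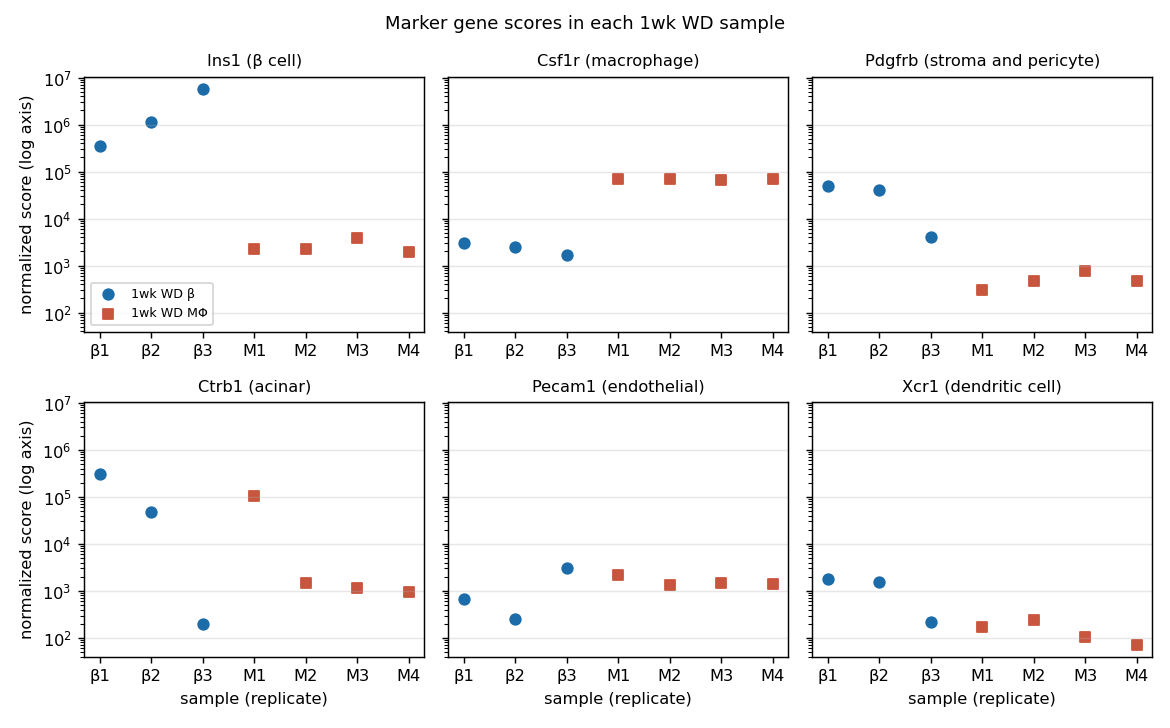
Normalized score (log axis) of 6 marker genes in each 1wk WD sample, with β cell replicates 1 to 3 as circles and MΦ replicates 1 to 4 (M1 to M4) as squares. *Ins1* separates the groups but spans 350182 to 5791698 among the β samples, while the stromal gene *Pdgfrb* and the dendritic cell gene *Xcr1* are lowest among β samples in replicate 3.

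At 1wk WD, 4053 genes were called higher in β cells (25.0% of genes tested) and 2982 higher in MΦs (18.4%). The median log2 difference over all genes, β cells minus MΦs, was 0.13. Under quantile normalization this median moved to -0.24 and the split of calls turned, with 3169 genes higher in β cells and 4037 in MΦs, that is 44.0% of calls in β cells against 57.6%. The scores of 56.5% of the genes tested did not overlap between the groups.

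Among genes whose groups did not overlap, the 10 with the largest difference towards MΦs were *Ccl3*, *Ccl4*, *Spic*, *Mrc1*, *Clec4n*, *C1qb*, *Lilra5*, *Cx3cr1*, *Sirpb1b*, and *Mgl2*. They include a pair of chemokine ligands, the mannose receptor (*Mrc1*), the fractalkine receptor (*Cx3cr1*), and a transcription factor of iron-recycling MΦs (*Spic*). *Ccl3* had scores of 1, 3, and 214 in β cells and 19670, 35679, 21666, and 16576 in MΦs, higher in MΦs by 10.87 ± 1.41 (limma adjusted p = 0.000357), and by 6.70 without β replicates 1 and 2. The 10 with the largest difference towards β cells were *Nol4*, *Nell1*, *Sphkap*, *Dcdc5*, *March4*, *Muc4*, *Gpr158*, *Enpp2*, *Prlr*, and *Slc38a4*. *Prlr*, the prolactin receptor through which β cells expand in pregnancy, had scores of 18761, 38525, and 81885 in β cells and 30, 51, 64, and 34 in MΦs, higher in β cells by 9.80 ± 0.49 (limma adjusted p = 4.99e-06). All 10 of these β cell genes were highest in β replicate 3 and lowest in replicate 1, the order of *Ins1*.

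Promoter windows of 300 bases (250 before and 50 after each RefSeq transcription start, GRCm38.p6) were searched on both strands for 3 short motifs. These were GAGGAAGT, a site of the myeloid factor PU.1, GCCATCTG, the E box of the insulin promoters, and TGACGTCA, the cyclic AMP response element (CRE). None of the 3 contains another, and the CRE reads the same on both strands. The PU.1 letters were found in 7.43% of the 2287 matched genes called higher in MΦs, in 2.49% of the 3051 matched genes called higher in β cells, in 3.72% of the 12458 matched genes tested, and in 3.69% of all 27025 genes with a window. The insulin E box was found in 1.97%, 1.11%, 1.20%, and 1.52% of them, and the CRE in 2.49%, 2.59%, 3.20%, and 2.03%. The CRE share of both called groups thus lay below that of the genes tested and above that of all windows. The shares with the PU.1 letters and with the insulin E box both lay above these backgrounds for MΦ genes and below them for β cell genes, by less than 1 percentage point for the E box. These are counts of letters, with no test, and a match does not show that a factor binds.

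The 150 bases before the start of 8 genes are printed to show where such letters lie, with the motif in capitals. These genes were picked after their values were seen, from listed genes with a motif in this stretch. The first 4 genes, called higher in MΦs, hold the PU.1 letters or their reverse complement ACTTCCTC: *Areg* (amphiregulin, an EGF receptor ligand), which holds the CRE too, *Il18rap* (an interleukin 18 receptor chain), *Cd72* (a semaphorin receptor), and *Havcr2* (TIM-3). *Ins1* holds the E box, and *Chgb*, *Scg2*, and *Pcsk1*, genes of the secretory granule called higher in β cells, hold the CRE.
Areg: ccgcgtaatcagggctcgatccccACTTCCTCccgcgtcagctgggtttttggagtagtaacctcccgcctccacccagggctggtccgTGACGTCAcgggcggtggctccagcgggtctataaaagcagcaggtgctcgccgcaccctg
Il18rap: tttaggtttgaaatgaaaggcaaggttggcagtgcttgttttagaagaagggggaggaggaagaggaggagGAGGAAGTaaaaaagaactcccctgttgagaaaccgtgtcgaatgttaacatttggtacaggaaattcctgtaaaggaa
Cd72: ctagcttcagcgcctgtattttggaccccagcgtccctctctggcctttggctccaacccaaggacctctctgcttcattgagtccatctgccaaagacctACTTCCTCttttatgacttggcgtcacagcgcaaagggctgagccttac
Havcr2: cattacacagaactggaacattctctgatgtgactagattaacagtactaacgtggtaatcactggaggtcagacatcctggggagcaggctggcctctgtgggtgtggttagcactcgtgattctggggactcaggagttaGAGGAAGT
Ins1: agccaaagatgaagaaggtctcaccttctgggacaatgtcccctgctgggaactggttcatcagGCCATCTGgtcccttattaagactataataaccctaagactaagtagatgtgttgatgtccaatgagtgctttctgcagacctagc
Chgb: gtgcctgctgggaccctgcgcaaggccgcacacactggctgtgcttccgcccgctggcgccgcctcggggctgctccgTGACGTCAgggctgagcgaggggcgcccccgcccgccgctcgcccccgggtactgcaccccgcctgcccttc
Scg2: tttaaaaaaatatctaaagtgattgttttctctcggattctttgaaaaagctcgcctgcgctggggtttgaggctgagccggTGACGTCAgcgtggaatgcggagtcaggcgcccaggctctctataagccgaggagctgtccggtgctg
Pcsk1: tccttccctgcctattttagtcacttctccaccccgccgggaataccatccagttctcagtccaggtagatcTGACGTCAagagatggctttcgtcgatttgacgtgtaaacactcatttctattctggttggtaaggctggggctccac
The 8 windows lie at chr5:91139449-91139598 (+ strand, *Areg*), chr1:40515212-40515361 (+ strand, *Il18rap*), chr4:43454627-43454776 (- strand, *Cd72*), chr11:46454781-46454930 (+ strand, *Havcr2*), chr19:52264147-52264296 (+ strand, *Ins1*), chr2:132781492-132781641 (+ strand, *Chgb*), chr1:79440027-79440176 (- strand, *Scg2*), and chr13:75089707-75089856 (+ strand, *Pcsk1*) of GRCm38.p6. The motif begins 126, 61, 79, 49, 8, 86, 72, 68, and 78 bases before the start in these genes, as listed in the same order, with the PU.1 letters first in *Areg*. *Pcsk1*, the convertase that cuts proinsulin, had scores of 6650, 9529, and 27785 in β cells and 5, 14, 44, and 18 in MΦs, higher in β cells by 9.50 ± 0.73 (limma adjusted p = 2.84e-05). *Il18rap* had scores of 4, 17, and 32 in β cells and 2881, 3168, 2591, and 2600 in MΦs, higher in MΦs by 7.61 ± 0.58 (limma adjusted p = 2.82e-05). Neither gene's groups overlapped.

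Of the 211 ligand genes, 209 were in the table and 186 passed the filter, of which 63 (33.9%) were called higher in MΦs, 71 (38.2%) higher in β cells, and 52 in neither. Of the 206 receptor genes, 205 were in the table and 192 passed, of which 70 (36.5%) were called higher in MΦs, 68 (35.4%) higher in β cells, and 54 in neither. Both roles were thus called more often than all genes in each direction, against a background of 18.4% in MΦs and 25.0% in β cells. The lists hold genes known for cell type-specific use, and no test was made of this excess. The median log2 difference was 0.44 for ligands and -0.07 for receptors, beside 0.13 for all genes.

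Some families lay mostly on 1 side and others were split. Of the CC chemokine ligands, 12 of 13 tested were called higher in MΦs and none in β cells, and of their receptors 5 of 8 were higher in MΦs. All 6 colony-stimulating factor receptors were called higher in MΦs and all 4 of their ligands tested higher in β cells. All 5 Slit and netrin receptors tested, all 3 EGF receptors, and both PDGF receptors were called higher in β cells, as were 13 of 21 peptide hormone receptors. In the interleukin 1 family 3 of 4 ligands were higher in MΦs, and of the 5 receptor genes *Il1r1* alone was called higher in β cells. PDGF ligands were split, with 2 higher in each cell type, and of 10 TGF-beta and BMP receptors 2 were higher in MΦs, 3 in β cells, and 5 in neither.

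**Figure D2:**
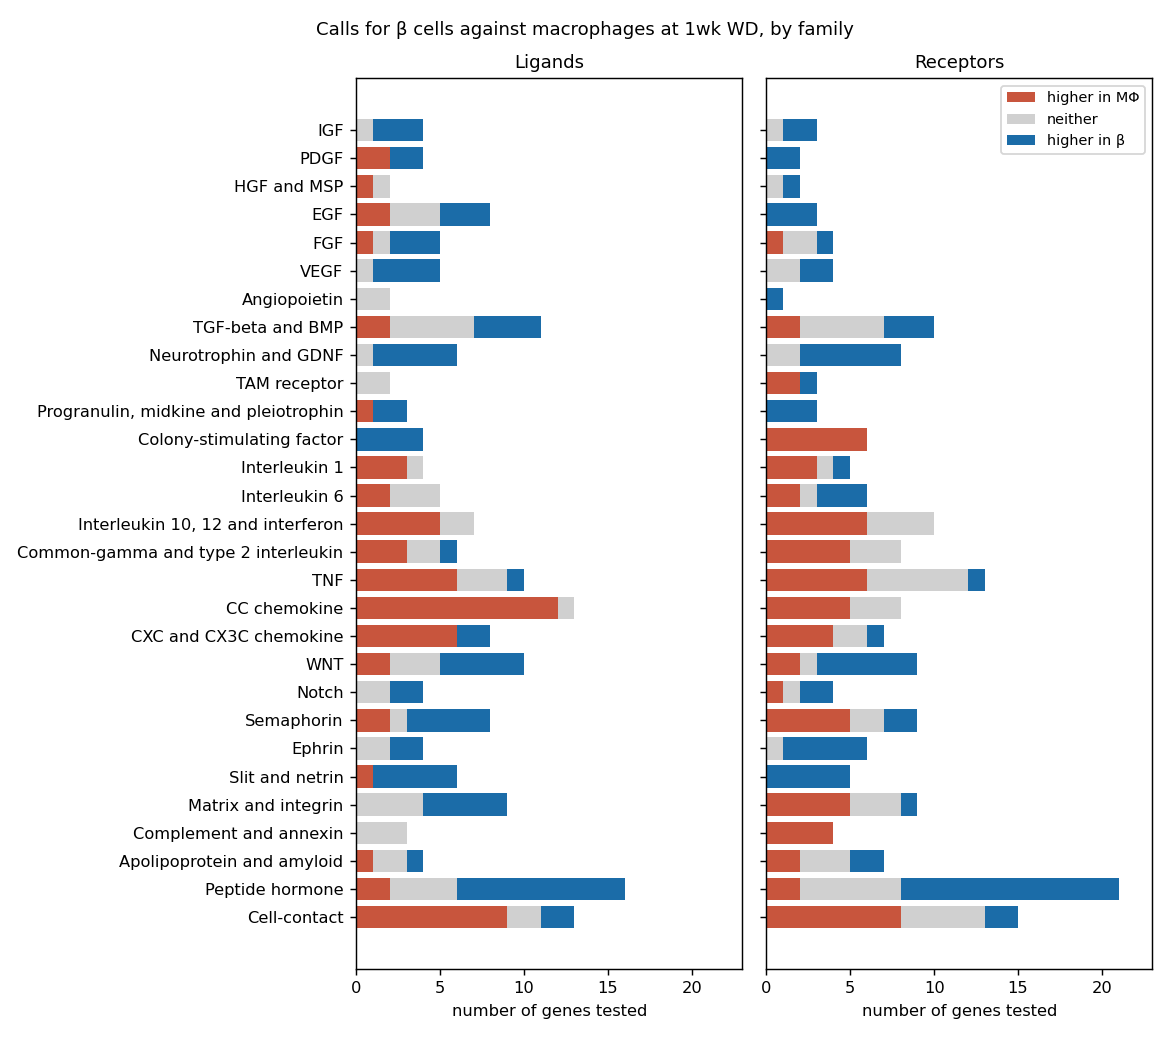
Number of ligand genes (left) and receptor genes (right) tested in each of 29 families, coloured by call: higher in MΦs, neither, or higher in β cells. CC chemokine ligands lie almost all on the MΦ side (12 of 13), and peptide hormone receptors mostly on the β cell side (13 of 21).

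Pairs whose ligand was called higher in MΦs and whose receptor was called higher in β cells numbered 25 of the 272 with both genes tested, with 20 ligands and 22 receptors in 13 families. In the opposite direction there were 21 pairs. A further 42 pairs had both genes higher in MΦs and 58 had both higher in β cells. The count of 25 ranged from 19 to 26 over the 20 other settings tried, and none of the 80 genes of the opposite-direction pairs changed direction in any of them.

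Interleukin 1 joined MΦ ligands with a β cell receptor, all far apart between the groups. *Il1b* (mm9 chromosome 2, 129190306 to 129196875, - strand), which encodes the inflammatory cytokine IL-1β, had scores of 30, 20, and 268 in β cells and 24996, 22549, 19420, and 23028 in MΦs. It was higher in MΦs by 8.65 ± 0.77 (limma adjusted p = 5.45e-05), and the β cell score was highest in replicate 3, the sample with the most *C1qb*. The *Il1b* difference was 6.38 without β replicates 1 and 2 and 9.78 without β replicate 3. *Il1a*, which encodes IL-1α, lies next to it (mm9 chromosome 2, 129125346 to 129135708, - strand) and was at 2, 5, and 10 in β cells and at 343, 880, 525, and 680 in MΦs, higher in MΦs by 6.62 ± 0.58 (limma adjusted p = 5.37e-05). The groups did not overlap for either ligand, and ECs had at most 4 for *Il1b* and 43 for *Il1a*.

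Their signalling receptor *Il1r1* (mm9 chromosome 1, 40281925 to 40373043, + strand) had scores of 17526, 29006, and 59339 in β cells and 681, 908, 1013, and 872 in MΦs. It was higher in β cells by 5.18 ± 0.37 (limma adjusted p = 2.15e-05), the groups did not overlap, and ECs lay between, at 3904 to 5366. The β samples rose in the order of *Ins1*, and without the stroma-rich replicates 1 and 2 the difference was 6.11 (limma adjusted p = 0.000121). The accessory chain *Il1rap*, with 3020, 2601, and 2267 in β cells and 2521, 1517, 1860, and 1911 in MΦs, was not called (0.44 ± 0.21, limma adjusted p = 0.104). The receptors for the related cytokines IL-18 and IL-33 lay on the other side: *Il18r1*, *Il18rap*, and *Il1rl1* were all called higher in MΦs, and *Il1rl1* had 3, 37, and 80 in β cells and 9177, 8342, 13368, and 13584 in MΦs.

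In the interleukin 6 family, the MΦ ligands were *Osm* (oncostatin M) and *Clcf1* (cardiotrophin-like cytokine). *Osm* had scores of 2, 1, and 1 in β cells and 1614, 2107, 902, and 1123 in MΦs, higher in MΦs by 9.22 ± 0.46 (limma adjusted p = 4.99e-06). *Clcf1* had 855, 614, and 238 in β cells and 2564, 2740, 2543, and 3185 in MΦs, higher in MΦs by 2.45 ± 0.40 (limma adjusted p = 0.00113). Neither ligand overlapped between the groups, and *Osm* was near the lowest score in every β cell and EC sample.

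Their receptors differed in where they lay among the β samples. *Cntfr*, the binding chain for CLCF1 (mm9 chromosome 4, 41604529 to 41644121, - strand), had 657, 1381, and 4021 in β cells and 1, 10, 9, and 1 in MΦs, higher in β cells by 8.39 ± 0.91 (limma adjusted p = 0.000148). Its β samples had the order of *Ins1*, and it was at most 2 in ECs. *Osmr*, the oncostatin M receptor, had 7556, 5882, and 705 in β cells and 35, 108, 144, and 92 in MΦs, higher in β cells by 5.21 ± 0.85 (limma adjusted p = 0.00118). It was lowest of the β samples in replicate 3, and ECs were far higher, at 21382 to 27389. Its difference was 3.05 without β replicates 1 and 2 (limma adjusted p = 0.0348). The shared chain *Il6st* (gp130), with 5691, 6624, and 3062 in β cells and 5584, 5574, 6559, and 6351 in MΦs, was not called (limma adjusted p = 0.358), and *Lifr* and *Il6ra* were called higher in MΦs by 1.04 and 1.70, the latter by 0.88 and not called without β replicates 1 and 2.

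Growth factors formed a further group. *Pdgfb* (mm9 chromosome 15, 79826330 to 79845238, - strand), a chain of platelet-derived growth factor, had scores of 608, 782, and 1290 in β cells and 4739, 2870, 3545, and 3272 in MΦs, higher in MΦs by 2.06 ± 0.29 (limma adjusted p = 0.000515), and ECs were higher still, at 7152 to 10917. *Pdgfc* had 1078, 618, and 193 in β cells and 2793, 1616, 2233, and 2731 in MΦs, higher in MΦs by 2.18 ± 0.53 (limma adjusted p = 0.00877). The groups did not overlap for either ligand, and the ECs had almost no *Pdgfc* (18 to 109). Without β replicates 1 and 2, *Pdgfc* was higher in MΦs by 3.56 and *Pdgfb* by 1.46.

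The PDGF receptors are used chiefly by pericytes and fibroblasts, and both stand in the list of stromal markers as well. *Pdgfrb* had scores of 48280, 40295, and 3980 in β cells and 305, 460, 757, and 480 in MΦs, higher in β cells by 5.38 ± 0.81 (limma adjusted p = 0.000792). *Pdgfra* had 14446, 9646, and 291 in β cells and 46, 182, 184, and 31 in MΦs, higher in β cells by 5.35 ± 1.34 (limma adjusted p = 0.0101). β replicate 3 had the lowest score of each among the β samples. Without β replicates 1 and 2, *Pdgfrb* was higher in β cells by 3.06 (limma adjusted p = 0.00751), and *Pdgfra* was no longer called (1.79, limma adjusted p = 0.268), so the pairs with *Pdgfra* rest on those libraries.

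*Hgf*, hepatocyte growth factor, had scores of 1230, 1101, and 149 in β cells and 2638, 3071, 2286, and 2949 in MΦs, higher in MΦs by 2.21 ± 0.67 (limma adjusted p = 0.0233), a call lost when MΦ replicate 1, 2, or 4 was left out. The difference was 4.18 without β replicates 1 and 2 (limma adjusted p = 0.000193) and 1.22 without β replicate 3 (limma adjusted p = 0.000306). Its receptor *Met* had 1166, 1608, and 2273 in β cells and 462, 449, 417, and 598 in MΦs, higher in β cells by 1.76 ± 0.27 (limma adjusted p = 0.000836). *Met* was as high in ECs, at 1411 to 2612, and did not overlap between β cells and MΦs.

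*Grn*, progranulin, which lysosome-rich phagocytes make in quantity, had 2592, 3230, and 2262 in β cells and 21890, 22318, 18940, and 19638 in MΦs, higher in MΦs by 2.95 ± 0.16 (limma adjusted p = 7.49e-06). *Sort1*, the sortilin receptor that takes progranulin up, had 4316, 3966, and 5123 in β cells and 1546, 1316, 1381, and 1245 in MΦs, higher in β cells by 1.70 ± 0.16 (limma adjusted p = 7.33e-05). This pair had small errors, its receptor varied little among the β samples, and *Sort1* in ECs (4055 to 6586) lay in the range of β cells.

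Among EGF family genes, *Areg* had 72, 8, and 14 in β cells and 134, 137, 82, and 124 in MΦs, higher in MΦs by 2.46 ± 0.74 (limma adjusted p = 0.0233). Its receptor *Egfr* (mm9 chromosome 11, 16652206 to 16818161, + strand) had 13705, 11448, and 4815 in β cells and 379, 260, 274, and 250 in MΦs, higher in β cells by 4.98 ± 0.36 (limma adjusted p = 2.22e-05). *Egfr* was lowest of the β samples in replicate 3, yet that replicate stood above every EC sample (72 to 314), and without β replicates 1 and 2 the difference was 4.07 (limma adjusted p = 0.000641). The call of *Areg* was lost without β replicate 2 and without MΦ replicate 1, 2, or 4. *Nrg2*, a neuregulin, was higher in MΦs by 2.63 ± 0.51, and its receptors *Erbb3* and *Erbb4* were higher in β cells by 2.13 ± 0.51 and 4.93 ± 0.94, both lowest of the β samples in replicate 3. *Erbb3* was not called without β replicates 1 and 2 (1.26, limma adjusted p = 0.0745) or under quantile normalization, and without those replicates *Erbb4* was higher in β cells by 3.05. Of the β cell ligands in this family, *Egf* had 304, 461, and 1059 in β cells and 140, 147, 100, and 113 in MΦs, higher in β cells by 2.09 ± 0.45 (limma adjusted p = 0.00516).

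Guidance cues gave pairs whose receptors had low scores in MΦs. *Slit1*, a secreted repellent of growing axons, had scores of 51, 56, and 85 in β cells and 1443, 557, 865, and 671 in MΦs, higher in MΦs by 3.71 ± 0.40 (limma adjusted p = 0.000144). Its receptor *Robo1* (mm9 chromosome 16, 72663394 to 73046340, + strand) had 3209, 3553, and 3886 in β cells and 34, 24, 24, and 27 in MΦs, higher in β cells by 6.98 ± 0.30 (limma adjusted p = 2.72e-06). *Robo2* had 11183, 13379, and 28791 in β cells and 27, 48, 159, and 85 in MΦs, higher in β cells by 7.95 ± 0.60 (limma adjusted p = 2.58e-05). ECs had at most 364 of *Robo1* and 234 of *Robo2*. *Robo1* was even across the β samples, whereas *Robo2* was highest in replicate 3. The related ligands *Slit2* and *Slit3* were called higher in β cells by 5.95 ± 1.08 and 4.76 ± 0.89, and without β replicates 1 and 2 *Slit2* was not called (3.41, limma adjusted p = 0.0803) and *Slit3* was higher by 2.14.

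The semaphorins *Sema4a* and *Sema4d* were higher in MΦs by 1.74 ± 0.18 and 2.44 ± 0.15 (limma adjusted p = 0.000134 and 1.21e-05). *Sema4d* had 2063, 1625, and 1777 in β cells and 11218, 10025, 9139, and 9033 in MΦs. *Plxnb1*, the plexin that binds them, had 2782, 2597, and 1767 in β cells and 33, 55, 88, and 104 in MΦs, higher in β cells by 5.17 ± 0.44 (limma adjusted p = 4.48e-05). *Cd72*, the other SEMA4D receptor in the list and a B cell and MΦ protein, was called higher in MΦs, as was *Sema4d* itself.

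*Apoe*, a lipid carrier that MΦs secrete, had scores of 1742, 2050, and 2003 in β cells and 107130, 126151, 109395, and 97213 in MΦs, higher in MΦs by 5.83 ± 0.15 (limma adjusted p = 5.78e-07), and ECs had at most 220. Its receptor *Vldlr*, which takes up lipoproteins, had 1222, 1398, and 3973 in β cells and 5, 2, 6, and 11 in MΦs, higher in β cells by 8.25 ± 0.65 (limma adjusted p = 3.2e-05). *Lrp8* was higher in β cells by 1.90 ± 0.26 (limma adjusted p = 0.000482). Both receptors were highest in β replicate 3, and neither overlapped with MΦs.

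Several of the remaining pairs had low scores or calls that changed with the libraries or settings. *Fgf18* and *Rspo1* reached at most 32 and 29 in MΦs, and their calls were lost at a pseudocount of 20. Their receptors were *Fgfr3*, higher in β cells by 2.00 ± 0.49 but by 0.79 and not called under quantile normalization (limma adjusted p = 0.199), and *Lgr4*, with 2603, 2929, and 2320 in β cells and 230, 231, 226, and 262 in MΦs, higher in β cells by 3.45 ± 0.19 (limma adjusted p = 7.9e-06). *Edn1* (endothelin) was higher in MΦs by 3.18 ± 0.98 but was highest in ECs (737 to 1318), and its call was lost without β replicate 1 and without MΦ replicate 2 or 3. Without β replicates 1 and 2, neither *Edn1* (limma adjusted p = 0.203) nor its receptors *Ednra* (2.80, limma adjusted p = 0.14) and *Ednrb* (1.72, limma adjusted p = 0.206) were called. *Ghrl* (ghrelin) was higher in MΦs by 1.14 ± 0.35, and its call was lost without β replicate 1 and without MΦ replicate 1, 2, or 3. Its receptor *Ghsr* was not called without β replicates 1 and 2 (4.50, limma adjusted p = 0.054) or under quantile normalization.
The calls of the cell-contact pair *Nectin1* and *Nectin3* held in all 20 other settings, with *Nectin3* at 3639, 3776, and 5256 in β cells and 5, 30, 56, and 57 in MΦs.

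**Figure D3:**
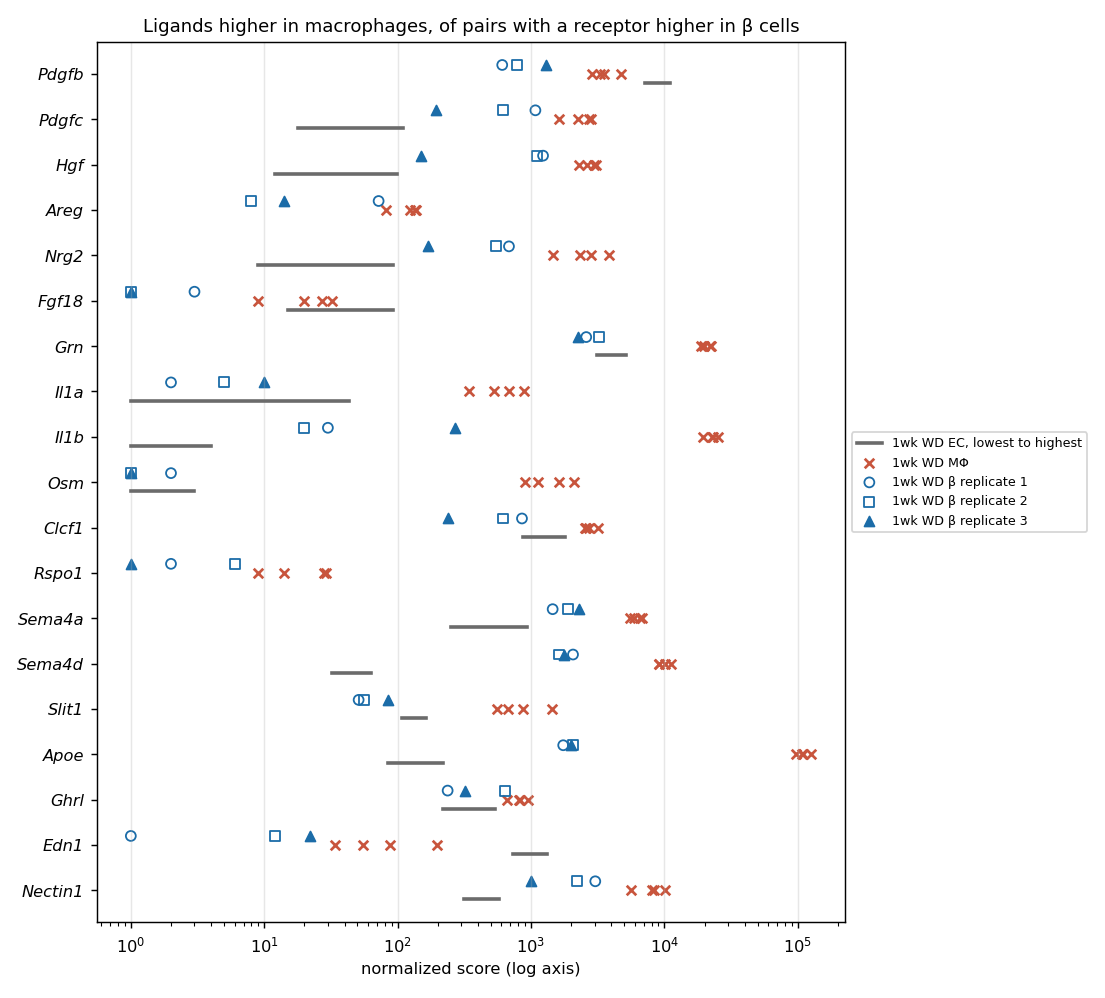
Normalized score (log axis) of 19 ligands called higher in MΦs that have a receptor called higher in β cells, with crosses for the 4 MΦ samples, a symbol for each β replicate, and a grey line from the lowest to the highest of 5 EC samples. *Osm*, *Il1b*, and *Il1a* stand widest apart on the log2 scale, and *Pdgfb* and *Edn1* are highest in ECs.

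Taken by their place among the β samples, the 22 receptors of these pairs fell into 11 that were highest in β replicate 3, 10 that were lowest there, and 1 that lay between (*Fgfr3*). Those highest in replicate 3, as all 18 β cell markers, 9 of 12 EC markers, and 11 of 18 MΦ markers were, included *Il1r1*, *Cntfr*, *Vldlr*, *Robo2*, *Met*, and *Sort1*. Those lowest in it, as all 12 stromal markers and 6 of 8 dendritic cell markers were, included *Pdgfra*, *Pdgfrb*, *Ednra*, *Osmr*, *Egfr*, and *Plxnb1*. Over all 68 receptors called higher in β cells, 28 were highest and 34 lowest in replicate 3, whereas over all 4053 genes called higher in β cells 52.3% were highest and 36.1% lowest. A place in 1 of 3 samples is a description of these libraries and assigns no receptor to a cell type.

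**Figure D4:**
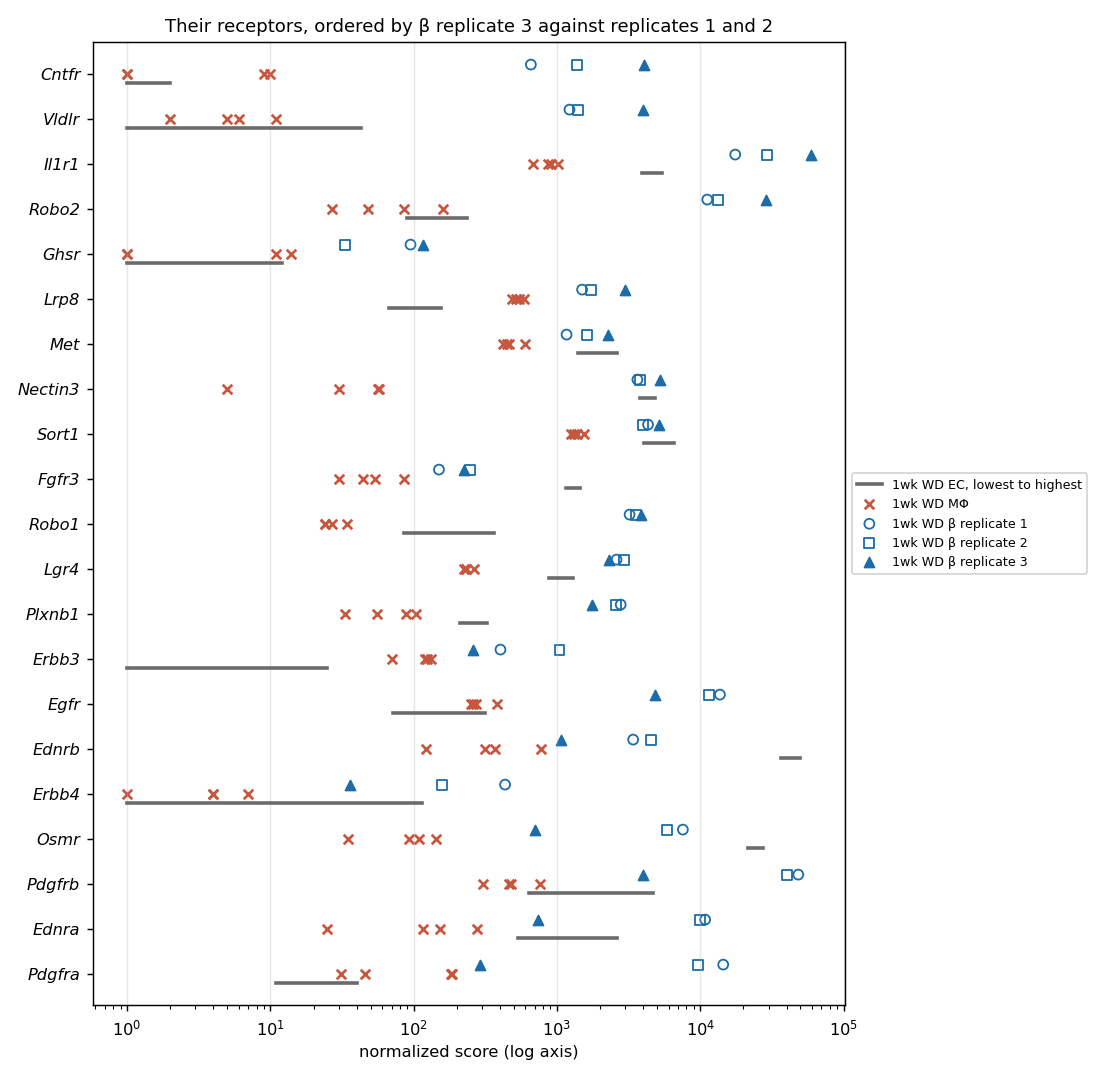
Normalized score (log axis) of 21 receptors called higher in β cells that have a ligand called higher in MΦs, ordered by the log2 difference of β replicate 3 (filled triangle) from the mean of replicates 1 and 2 (open symbols), with crosses for MΦs and a grey line for the range of ECs. *Cntfr* and *Il1r1* lie near the top with replicate 3 highest, *Robo1* and *Lgr4* show the 3 β samples together, and *Pdgfra* and *Ednra* lie at the bottom with replicate 3 lowest.

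In the opposite direction, the 4 colony-stimulating factor ligands tested were called higher in the β cell samples and their receptors higher in the MΦ samples. *Csf1* had scores of 3723, 3238, and 1095 in β cells and 855, 1053, 759, and 741 in MΦs, higher in β cells by 1.49 ± 0.41 (limma adjusted p = 0.0154). *Il34*, the other ligand of CSF1R, had 4583, 4155, and 326 in β cells and 28, 86, 55, and 79 in MΦs, higher in β cells by 4.99 ± 0.92 (limma adjusted p = 0.00229). The receptor *Csf1r* was higher in MΦs by 4.86 ± 0.21 (limma adjusted p = 2.72e-06). Both ligands were lowest of the β samples in replicate 3, and without replicates 1 and 2 *Csf1* was not called (0.38, limma adjusted p = 0.223), nor was it without replicate 2 alone. Without replicates 1 and 2, *Il34* was higher in β cells by 2.50 (limma adjusted p = 0.0395). *Kitl* and *Flt3l*, ligands of the stem cell receptors *Kit* and *Flt3*, were higher in β cells by 1.71 ± 0.33 and 1.47 ± 0.49, and neither was called without replicates 1 and 2. *Flt3l* lost its call in 11 of the 20 other settings, among them those without β replicate 1, β replicate 2, or any 1 MΦ sample. *Kitl* was far higher in ECs (44086 to 54249), and *Flt3*, itself a dendritic cell marker of the list, had 1043, 1227, and 153 in β cells.

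A pair of chemokines ran this way. *Cxcl12* had 776, 913, and 92 in β cells and 5, 41, 41, and 28 in MΦs, and its receptor *Cxcr4* had 635, 154, and 279 in β cells and 6465, 7557, 5878, and 5483 in MΦs, higher in MΦs by 4.38 ± 0.42 (limma adjusted p = 8.22e-05). *Cx3cl1* (fractalkine) had 1241, 1128, and 428 in β cells and 227, 232, 284, and 281 in MΦs, higher in β cells by 1.72 ± 0.39 (limma adjusted p = 0.00653). Its receptor *Cx3cr1* had 5, 2, and 218 in β cells and 15275, 12992, 12869, and 13637 in MΦs. Both ligands were lowest of the β samples in replicate 3, and neither was called without replicates 1 and 2 (limma adjusted p = 0.231 and 0.0616).

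*Cd200*, a surface protein that restrains myeloid cells, was highest of the β samples in replicate 3 instead. It had 2452, 4205, and 5446 in β cells and 77, 69, 125, and 138 in MΦs, higher in β cells by 5.28 ± 0.38 (limma adjusted p = 2.1e-05), with 11957 to 19773 in ECs. Its receptor *Cd200r1* had 95, 9, and 45 in β cells and 2560, 1509, 2334, and 2838 in MΦs, higher in MΦs by 5.99 ± 0.69 (limma adjusted p = 0.000202). *Iapp* (amylin, released with insulin) was higher in β cells by 9.11 ± 0.68, and *Ramp3*, a chain of an amylin receptor, had 78, 67, and 35 in β cells and 381, 422, 266, and 246 in MΦs. *Calcr*, the calcitonin receptor that RAMP3 joins, was at the lowest score in all 4 MΦ samples. *Il4*, with 207, 124, and 81 in β cells and 4, 5, 8, and 6 in MΦs, was higher in β cells by 4.29 ± 0.59 (limma adjusted p = 0.000503), and its receptor chains *Il4ra* and *Il13ra1* were higher in MΦs by 2.32 ± 0.46 and 2.42 ± 0.25, *Il4ra* by 3.64 without β replicates 1 and 2.

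The other pairs of this direction joined *Tgfb2* with *Tgfbr2*, *Fgf1* with *Fgfr1*, *Wnt5a* and *Wnt5b* with *Fzd5*, *Dll1* with *Notch2*, *Tnc* with *Itga9*, *Penk* with *Oprm1*, and class 3 and 7 semaphorins with *Nrp2*, *Plxnd1*, and *Plxnc1*. *Tgfbr2* had 3697, 3918, and 1510 in β cells and 12902, 14019, 13572, and 13858 in MΦs, higher in MΦs by 2.28 ± 0.32 (limma adjusted p = 0.000515). *Notch2* had 5380, 4775, and 985 in β cells and 31730, 27799, 29374, and 28687 in MΦs, higher in MΦs by 3.32 ± 0.53 (limma adjusted p = 0.0011). Its difference was 4.90 without β replicates 1 and 2 and 2.53 without β replicate 3. *Fzd5* overlapped between the groups. Several of these calls were weak: over the 20 other settings *Plxnd1* lost its call in 10, *Dll1* in 9, and *Fzd5* in 8, of which 5 each came with 1 sample left out. Without β replicate 3, *Plxnd1* and *Nrp2* were higher in MΦs by 0.63 and 0.96 and fell short of the fold change, *Fzd5* was not called (limma adjusted p = 0.0724), and *Dll1* did not pass the filter. Without replicates 1 and 2, the ligands *Fgf1*, *Tnc*, *Penk*, and *Sema7a* lost their calls, with differences of 4.31, 3.19, 1.68, and 0.99. That fit has a lone β sample, so a lost call does not show that the difference is gone. Of the 20 β cell ligands in this direction, 14 were lowest of the β samples in replicate 3 and 6 highest, and 10 of the 21 pairs remained when replicates 1 and 2 were left out, 15 without replicate 3, and 12 in a fit of all β and MΦ samples of the series.

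**Figure D5:**
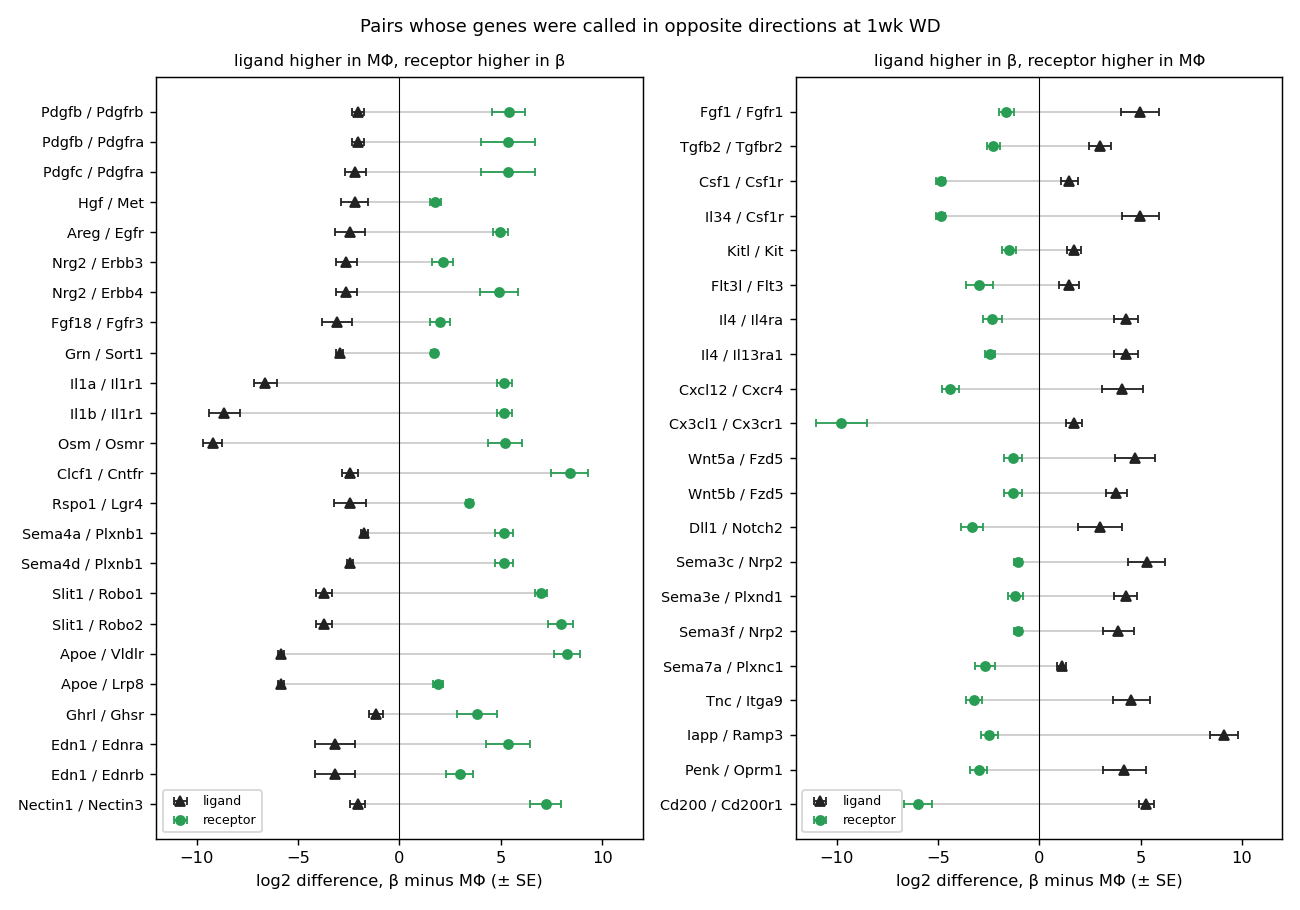
Log2 difference of β cells minus MΦs, with its standard error, for each ligand (triangle) and receptor (circle) of 24 pairs with the ligand higher in MΦs (left) and the 21 pairs with the ligand higher in β cells (right). *Osm*, *Il1b*, and *Il1a* have the ligands farthest towards MΦs on the left, and *Cx3cr1* and *Cd200r1* the receptors farthest towards MΦs on the right.

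Most chemokine pairs had ligand and receptor on the MΦ side, and 12 of the 42 pairs with both genes higher in MΦs were of the CC chemokine family. *Ccl2*, which draws monocytes, had scores of 159, 208, and 87 in β cells and 4484, 5700, 4229, and 4368 in MΦs, higher in MΦs by 5.02 ± 0.30 (limma adjusted p = 1.05e-05). *Ccl7* had 44, 10, and 30 in β cells and 3331, 2545, 1870, and 2450 in MΦs, higher in MΦs by 6.65 ± 0.49 (limma adjusted p = 2.29e-05). Their receptor *Ccr2* (mm9 chromosome 9, 124016689 to 124028296, + strand) had 662, 766, and 190 in β cells and 11621, 19511, 16788, and 23335 in MΦs, higher in MΦs by 5.23 ± 0.48 (limma adjusted p = 6.3e-05). Ligands and receptor thus lay in the same sorted cells, and the *Ccr2* signal of the β samples was lowest in replicate 3.

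Other cytokines followed. *Tnf* had 31, 288, and 188 in β cells and 7085, 11975, 8423, and 6575 in MΦs, higher in MΦs by 6.10 ± 0.68 (limma adjusted p = 0.000165). Of its receptors, *Tnfrsf1b* was called higher in MΦs by 3.75 ± 0.48, and *Tnfrsf1a* missed the fold change of 2 (higher in MΦs by 0.96 ± 0.18, limma adjusted p = 0.0025), with 1325, 1918, and 1330 in β cells and 3203, 2936, 2828, and 2731 in MΦs. *Tgfb1* had 1140, 910, and 232 in β cells and 7421, 7123, 6966, and 6927 in MΦs, higher in MΦs by 3.51 ± 0.49 (limma adjusted p = 0.000516), and *Tgfbr1* was higher in MΦs by 3.57 ± 0.28. *Il10*, an anti-inflammatory cytokine, had 303, 264, and 18 in β cells and 4567, 9107, 6044, and 4837 in MΦs, and both of its receptor chains were called higher in MΦs. All 4 interferon receptor chains in the list (*Ifnar1*, *Ifnar2*, *Ifngr1*, and *Ifngr2*) were called higher in MΦs, by 1.96 to 2.85.

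Of the 21 peptide hormone receptors tested, 13 were called higher in β cells, 2 in MΦs, and 6 in neither. *Glp1r*, through which GLP-1 raises insulin release, had scores of 29928, 49397, and 104386 in β cells and 61, 41, 157, and 64 in MΦs, higher in β cells by 9.54 ± 0.53 (limma adjusted p = 7.49e-06). *Sstr3*, a somatostatin receptor, was higher by 9.24 ± 0.96, *Galr1*, a galanin receptor, by 8.12 ± 0.64, and *Gipr*, the receptor for the incretin GIP, by 6.49 ± 0.82. All of these were highest in β replicate 3. Ligand genes of *Glp1r* and *Sstr3* were called higher in the same samples: *Gcg* (proglucagon) had 2313, 5353, and 23705 in β cells and *Sst* (somatostatin) 12667, 32179, and 56643, hormones of the α and δ cells that border β cells. *Gal* (galanin) was not called. Of the 58 pairs with both genes higher in β cells, 10 were Slit and netrin pairs and 6 peptide hormone pairs.

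In the insulin-like growth factor family, 2 of 3 receptors were called higher in β cells. Of the 4 ligands, *Igf2*, *Ins1*, and *Ins2* were called higher in β cells, and *Igf1* was not called. The *Ins1* call describes the sort, and *Ins2* is its near-identical copy. *Igf1r* (mm9 chromosome 7, 75097713 to 75371484, + strand) had scores of 13817, 12929, and 14917 in β cells and 5402, 3800, 4095, and 3532 in MΦs, higher in β cells by 1.74 ± 0.18 (limma adjusted p = 0.000105), and it was even across the β samples despite their other differences. *Igf2r*, which clears IGF2, had 6589, 7201, and 7070 in β cells and 190, 253, 184, and 188 in MΦs, higher in β cells by 5.10 ± 0.19 (limma adjusted p = 1.98e-06). *Igf2* had 126, 172, and 326 in β cells and 1, 9, 9, and 4 in MΦs, higher in β cells by 5.10 ± 0.76 (limma adjusted p = 0.000751). *Igf1* had 5693, 4530, and 1251 in β cells and 5298, 7037, 5838, and 8926 in MΦs, which overlapped and were not called (higher in MΦs by 1.06 ± 0.49, limma adjusted p = 0.1). Its β cell scores were high in the stroma-rich replicates. Without replicates 1 and 2 it was called higher in MΦs by 2.41 (limma adjusted p = 0.00369), it was called without replicate 1 too, and ECs were higher than both (11405 to 13462). *Insr*, the insulin receptor, was not called (limma adjusted p = 0.162).

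Some cytokine genes did not separate the groups. *Il12b*, a chain of interleukin 12, had 3103, 5750, and 544 in β cells and 1230, 1977, 1355, and 1921 in MΦs, with a difference of 0.43 ± 0.70 towards β cells (limma adjusted p = 0.635). The order of its groups depended on the libraries: without β replicates 1 and 2 it was called higher in MΦs by 1.54 (limma adjusted p = 0.0163), and without β replicate 3 higher in β cells by 1.41 (limma adjusted p = 0.00354). *Il12rb2*, its receptor chain, had 1250, 989, and 395 in β cells and 1529, 1404, 945, and 797 in MΦs (limma adjusted p = 0.333), and *Il6* had 376, 214, and 77 in β cells and 79, 270, 201, and 152 in MΦs (limma adjusted p = 0.808). For these 3 genes the groups overlapped.

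The difference between β cells and MΦs was then set against the same difference in the No Dox samples, in a fit of all 4 groups over 16660 genes. The change was called for no gene (0% of genes tested), with a smallest limma adjusted p of 0.0505 and 1170 genes at an unadjusted p under 0.05 (7.02%). Among the 186 ligands and 192 receptors tested, 16 and 25 were at an unadjusted p under 0.05. *Igf1r* was higher in β cells by 0.81 at No Dox and by 1.74 at 1wk WD, a change of 0.93 ± 0.24 (unadjusted p = 0.002 in limma, adjusted p = 0.527). *Il1b* differed by 8.71 at No Dox and 8.65 at 1wk WD, with a change of 0.06 ± 0.92. *Il1r1* differed by 5.68 and 5.18, with a change of -0.50 ± 0.86. *Apoe* differed by 7.31 and 5.83. For *Pdgfrb* the change was 2.78 ± 2.56 (unadjusted p = 0.295 in limma), an error close to the value itself.

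The No Dox β samples were mixed as well, and the result rests on which libraries enter. Without β replicates 1 and 2 of 1wk WD the change was called for 49 genes, and without these and No Dox β replicates 3 and 4, which were rich in stromal transcripts too, for 993. Both sets of libraries were chosen after seeing the data. In both fits a single β sample is left at 1wk WD, and it is assumed to vary like the other groups. Leaving out No Dox β replicate 4 alone gave 6 genes (*Abcd2*, *Apbb2*, *Fgfbp1*, *Gng2*, *Klra2*, and *Ms4a6d*). None of these genes is a ligand or receptor of the list.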

How the data were processed

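RNA of sorted islet cells was amplified and sequenced, and the authors aligned the reads to mm9 with TopHat2 2.0 and normalized them in Avadis NGS. The deposited values are TMM-normalized scores in whole numbers, with 1 as the lowest score, so read depth, its precision, and any use of strand are not given in the sources used here. The table has 6 further columns of per-sample values that match no sample of the series and were not used. Groups were taken from the sample titles. Scores were tested as log2(score + 1) with limma 3.58.1 in R 4.3.3 (trend on mean expression, empirical Bayes), for genes whose mean reached 20 in either group. Calls needed a fold change of 2 and a Benjamini-Hochberg adjusted p under 0.05 over all genes tested. The fit was tested on simulated data. Fold changes of low genes are understated by the pseudocount of 1.

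The genes named were the markers, the genes of pairs called in opposite directions, the leading ligand and receptor of each family, genes of the lists named in the study, and the 10 genes with the largest differences in each direction whose groups did not overlap. Other list members were named after their values were seen. The comparison, the pairs, and the marker lists were chosen with earlier results of these data known. Alternatives covered the pseudocount, filter, fold change, scaling, spread, replicate block, and each sample left out. Fits without stroma-rich β libraries were added after seeing the data. Of the 25 pairs counted with an MΦ ligand and a β cell receptor, 1 is not reported here. Figures were drawn with matplotlib 3.10.9.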

Additional observations from a re-analysis of the deposited data

Results flagged for a closer look

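Among the MΦ samples at 1wk WD, 3 of 93 groups of values held a sample that stood apart by Dixon's criterion for 4 samples (its gap to the next sample took up most of the range), which chance gives in about 1 in 20 groups. *Lgr4*, an R-spondin receptor, was at 262 in MΦ replicate 4 and at 226 to 231 in the others, all far below the β samples. *Plxnc1*, the semaphorin 7A receptor, was at 9683 in MΦ replicate 4. The mean log2 score of the acinar enzyme genes was 12.70 in MΦ replicate 1, the sample in which *Ctrb1* was at 105832.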

How the results depend on the processing

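The 80 genes of the opposite-direction pairs gave 1587 values over the 20 other settings, with 0 reversed, of which 1481 kept their call and 106 lost it, 16 of these without β replicates 1 and 2, and 45 genes lost no call. At a fold change of 4 or more, 1706 genes were higher in MΦs, since fewer genes can pass. With 1 sample left out, genes higher in β cells numbered 3659 to 4500 and in MΦs 2680 to 3192, ligands higher in MΦs 57 to 65, receptors higher in β cells 64 to 77, and the pairs 19 to 26, with 19 without MΦ replicate 2. Without β replicates 1 and 2, where the lone β sample is assumed to vary like the MΦs, 19 of the 25 pairs remained and 6 were gained.

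The change from No Dox was called for 1 gene at a pseudocount of 0.1, at one of 20, without the filter, or without the trend, for 2 with all β and MΦ samples in 1 fit, for 0 to 6 with 1 sample left out, for 49 without β replicates 1 and 2, and for 993 without the stroma-rich libraries of both β groups. The cause was not tested.

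With the replicate number as a block, 2649 genes were higher in MΦs and 3420 in β cells, with 60 ligands, 65 receptors, and 21 pairs, and 0 changes from No Dox. Whether same-numbered samples came from the same islets is not given in the sources used here. The deviations of same-numbered samples correlated at 0.111, 0.048, and 0.008, and β replicates 2 and 3 each correlated better with another number. Such correlations between different cell types cannot settle the pairing. The summed acinar score was highest in replicate 1 of β cells (727655), MΦs (257984), and ECs (81083), and a shared origin was not tested.

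Depth is unknown, so the counting error of low scores, such as those of *Fgf18* and *Rspo1*, could not be estimated.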
